A study of Mus musculus with 2 samples.

Results

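The beta-defensin genes of the mouse were described in RNA of the gonadal fat pad. They were taken by name, as every gene of both gene tables whose symbol is Defb followed by a number, together with the defensin-like genes Spag11a, Spag11b and AY761185. This gave 45 of the 43346 Ensembl genes in the tables, 42 of them named Defb. Both libraries are from C57BL/6J mice at 8 weeks of age, with males and females pooled and no treatment or mutant allele named, and the polyadenylated fraction of RNA sequenced as stranded pairs of 76 nt reads. They form 1 group of 2 biological replicates, and there is no second condition to set them against. Both replicates carry the same donor identifier, so the number of mice behind each library is not given, and the spread between them may be in part technical.

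Beta-defensins are small secreted cationic peptides folded around conserved disulfide bonds, best known as antimicrobial peptides of epithelia. A large branch of the family is made by the epithelium of the epididymis, the duct where sperm are stored and mature, and several of its peptides coat the sperm surface. Spag11 genes encode sperm-associated antigens with a beta-defensin-like part, and the rat form is known as an antimicrobial peptide of the epididymis. In mice, loss of a block of beta-defensin genes on chromosome 8 that holds Defb1, Defb2, Defb9, Defb10 and Defb11 makes males infertile.

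Gene fragments, the expected number of read pairs assigned to Ensembl genes, summed to 47106979 in replicate 1 and 54129473 in replicate 2. The libraries were not copies of each other, with a chi-square of 136.1 per degree of freedom over 19548 genes. The labelled tissue carried its own markers, since all 8 adipocyte genes on a marker list were expressed, here meaning a TPM (transcripts scaled to a fixed total per library) of at least 1 in each library. Their fragments were 1.42% of the total in replicate 1 and 1.58% in replicate 2. All 16 markers of the epididymal epithelium were expressed as well, with 2.38% of the fragments in replicate 1 and 1.85% in replicate 2, led by Gpx5, a secreted glutathione peroxidase, at 9518 and 6082 TPM. In bulk RNA, fewer cells of a type and less RNA per cell cannot be told apart.

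To show the sequences next to the start of the genes, the 250 bases before the start were taken from the RefSeq promoter table (build GRCm38.p6), in which 30 of the 45 members matched with 31 promoters. Short motifs were searched on both strands: TATAAA, the TATA box; AGAACA, the half-site of the glucocorticoid receptor, read as TGTTCT on the other strand; and AGGAAG, a core bound by ETS factors. Matches are in capitals below, and each sequence ends at the base before the start. Defb48 (chr14:62984511-62984760, minus strand), AY761185 (chr8:20944749-20944998, minus strand) and Defb41 (chr1:18265139-18265388, minus strand) are shown as abundant or marker members. Defb9 (chr8:21885435-21885684, minus strand), Defb10 (chr8:21858651-21858900, plus strand) and Defb11 (chr8:21906433-21906682, minus strand) are neighbours that were all higher in replicate 2, and were picked after their values were seen.
Defb48: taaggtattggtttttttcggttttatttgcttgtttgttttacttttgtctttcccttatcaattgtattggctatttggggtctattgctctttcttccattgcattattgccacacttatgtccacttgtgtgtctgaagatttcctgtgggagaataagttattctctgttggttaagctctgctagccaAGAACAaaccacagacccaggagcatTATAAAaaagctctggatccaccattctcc
AY761185: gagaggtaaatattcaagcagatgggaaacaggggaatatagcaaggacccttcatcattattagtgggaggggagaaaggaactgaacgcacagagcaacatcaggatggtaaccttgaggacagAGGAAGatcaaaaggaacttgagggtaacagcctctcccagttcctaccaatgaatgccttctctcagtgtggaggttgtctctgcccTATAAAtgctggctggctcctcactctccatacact
Defb41: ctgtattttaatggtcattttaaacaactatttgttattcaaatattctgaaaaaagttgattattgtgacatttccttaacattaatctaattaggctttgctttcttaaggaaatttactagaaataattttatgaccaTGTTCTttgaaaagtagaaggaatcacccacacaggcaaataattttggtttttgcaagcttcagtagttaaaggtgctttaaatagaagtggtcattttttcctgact
Defb9: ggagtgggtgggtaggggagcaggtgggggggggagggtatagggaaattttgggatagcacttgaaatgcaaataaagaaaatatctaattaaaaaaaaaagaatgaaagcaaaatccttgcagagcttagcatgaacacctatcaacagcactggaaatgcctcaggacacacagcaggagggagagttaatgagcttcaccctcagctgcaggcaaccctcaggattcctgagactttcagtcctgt
Defb10: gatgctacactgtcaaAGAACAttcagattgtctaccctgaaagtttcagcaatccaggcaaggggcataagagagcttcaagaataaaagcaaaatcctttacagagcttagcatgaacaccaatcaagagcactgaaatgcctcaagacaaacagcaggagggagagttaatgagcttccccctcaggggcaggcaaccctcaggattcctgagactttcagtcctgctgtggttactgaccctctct
Defb11: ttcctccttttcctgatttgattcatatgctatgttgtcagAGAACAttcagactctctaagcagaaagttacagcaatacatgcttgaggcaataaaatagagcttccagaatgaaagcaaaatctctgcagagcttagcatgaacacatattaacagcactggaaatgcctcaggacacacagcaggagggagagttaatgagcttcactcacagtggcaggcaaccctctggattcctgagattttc

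In the Defb48 promoter the TATA box began 30 bases before the start, and in that of AY761185 it began 36 bases before it. The receptor half-site lay 56 bases before the start of Defb48 and 109 before that of Defb41. Defb10 held it 234 bases and Defb11 209 bases before the start, while the window of Defb9 held none of the motifs. Defb20 and Defb42, abundant members described below, held none either. Defb9, Defb10 and Defb11 also resembled each other along the whole window, with 65.1% to 67.7% identical bases in alignment, against a median of 50.2% over all 435 pairs of member genes. Pairs among Defb3, Defb5, Defb6, Defb7, Defb8 and Defb46 had 60.8% to 86.7%, the closest being Defb3 and Defb8. All of these genes but Defb6 had 0 fragments in both libraries. Such likeness was thus not particular to Defb9, Defb10 and Defb11.

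The half-site AGAACA was in 11 of 24 promoters of expressed members (45.8%) and in 3 of 7 promoters of members that were not expressed (42.9%), against 16.1% of all 32851 promoters in the table. The shares of expressed members and of members not expressed were close, on few promoters. TATAAA was in 20.8% and 14.3% of the same promoter sets, against 12.4% of all promoters. AGGAAG was in 33.3% and 42.9%, against 29.5% of all. CCAAT, the motif of the CCAAT box, which is not capitalised here, was in 50% and 42.9%, against 33.9% of all. Member promoters had a median GC content of 47.4%, against 52.4% for all promoters, and related promoters share sequence, so their matches are not separate observations.

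Beta-defensin RNA was abundant in both libraries. Of the 45 members, 33 (73.3%) were expressed, beside 33.0% of all Ensembl genes and 61.6% of protein-coding genes. The members held 299806 fragments in replicate 1, which is 0.636% of the total (exact binomial 95% interval 0.634% to 0.639%). In replicate 2 they held 322072 fragments, or 0.595% (0.593% to 0.597%). Without Spag11b, the member with the most fragments, the share was 0.472% in replicate 1 and 0.482% in replicate 2, so the order of the libraries rested on that gene. These intervals, and the floors given below, cover counting error only. The median member stood at 56.2 TPM in replicate 1 and 131.6 TPM in replicate 2, while the median of all Ensembl genes was 0.03 TPM in each. These medians are not like for like. All members are protein-coding, while the Ensembl genes include many that are not. The short length of the members, described below, also raises their TPM for a given number of fragments. In both libraries 20 members reached 100 TPM, of 1138 genes that did, and 8 reached 1000 TPM, of 113 genes.

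**Figure D1:**
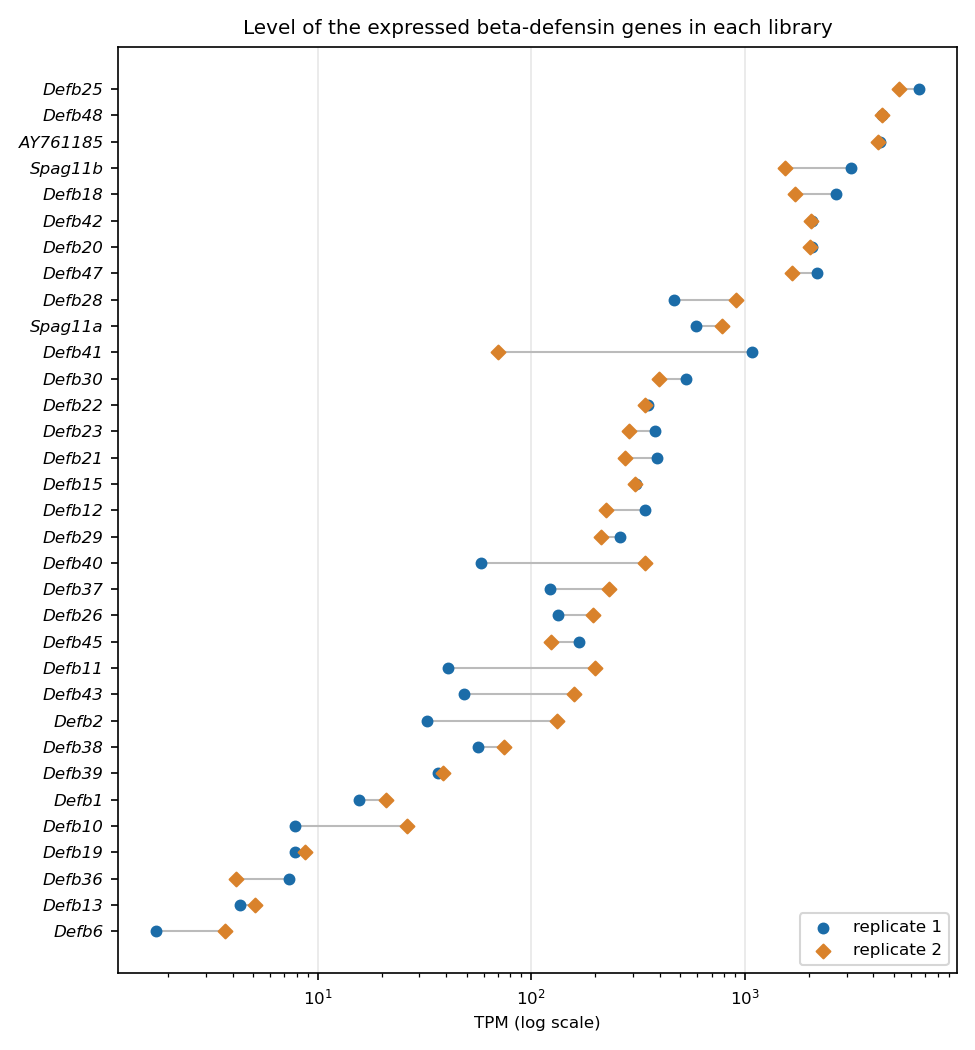
TPM of the 33 expressed beta-defensin genes (horizontal, log scale), ordered by mean level, with circles for replicate 1 and diamonds for replicate 2. Levels run from Defb25 at 6533 and 5298 TPM to Defb6 at 1.76 and 3.67 TPM, and the points of the libraries lie widest apart for Defb41, Defb40, Defb11 and Defb2.

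Few genes held most of this RNA. By fragments, which carry no length correction, the order was led by Spag11b, AY761185, Defb48, Defb20, Defb42 and Defb25. The first 4 held 64.8% of all member fragments in replicate 1 and 62.6% in replicate 2, and the first 10 held 91.0% and 89.0%. The family's share of the library was therefore set by a small number of genes, although most of the family was detectable.

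Spag11b (chr8:19140759-19143010) had 77589 fragments in replicate 1 and 61325 in replicate 2, the most of any member in each library. Its level was 3128 and 1539 TPM over effective lengths of 665.2 and 858.0 nt. Effective length is the number of positions at which a fragment can start on a transcript, and it is the divisor of TPM. AY761185 (chr8:20943694-20944710), a beta-defensin gene without a Defb number, had 43243 and 51404 fragments at effective lengths of 270.6 and 263.6 nt, giving 4287 and 4200 TPM. Its mean was 4243 ± 61.6 TPM (SD, n = 2), a spread of the libraries that is small beside its level.

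Defb48 (chr14:62977524-62984510) had 37276 and 45210 fragments and 4374 and 4393 TPM, with an effective length of 228.6 and 221.6 nt. Defb20 (chr2:152477063-152479934) had 36288 and 43599 fragments and 2055 and 2012 TPM. Defb42 (chr14:63046991-63058149) had 28874 and 35333 fragments and 2062 and 2040 TPM. These 3 epididymal beta-defensin genes had nearly the same TPM in each library. Defb25 (chr2:152622356-152623053) was the highest by TPM, at 6533 and 5298, a mean of 5916 ± 873 TPM (SD, n = 2). It had fewer fragments than the others, 18680 and 17155, over a short effective length of 76.7 and 69.7 nt.

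Defb18 and Defb47 ranked high by TPM and low by fragments. Defb18 had 2672 and 1710 TPM from 4159 and 2769 fragments, over an effective length of 41.8 and 34.9 nt. Defb47 had 2181 and 1664 TPM from 1975 and 1397 fragments, over 24.3 and 18.1 nt. By mean TPM they took places 5 and 8 among the members, and by mean fragments places 13 and 17. Every annotated form of both genes ends at the coding sequence, so that the divisor holds no untranslated part. The same holds for Defb26, Defb14, Defb34 and Defb46.

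This short divisor is common in the family. The median effective length of the members was 168.6 nt in replicate 1 and 165.6 nt in replicate 2, against 2048 nt and 2025 nt for expressed genes. It was under 100 nt in 17 members in replicate 1 and 18 in replicate 2, and under 50 nt in 8 members in each. The coding sequence had a median of 219 nt and ranged between 171 and 558 nt. Members with the same number of fragments can thus differ widely in TPM, as Defb39 (49 and 52 fragments, 36.7 and 38.6 TPM) and Defb13 (38 and 54 fragments, 4.33 and 5.09 TPM) show.

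**Figure D2:**
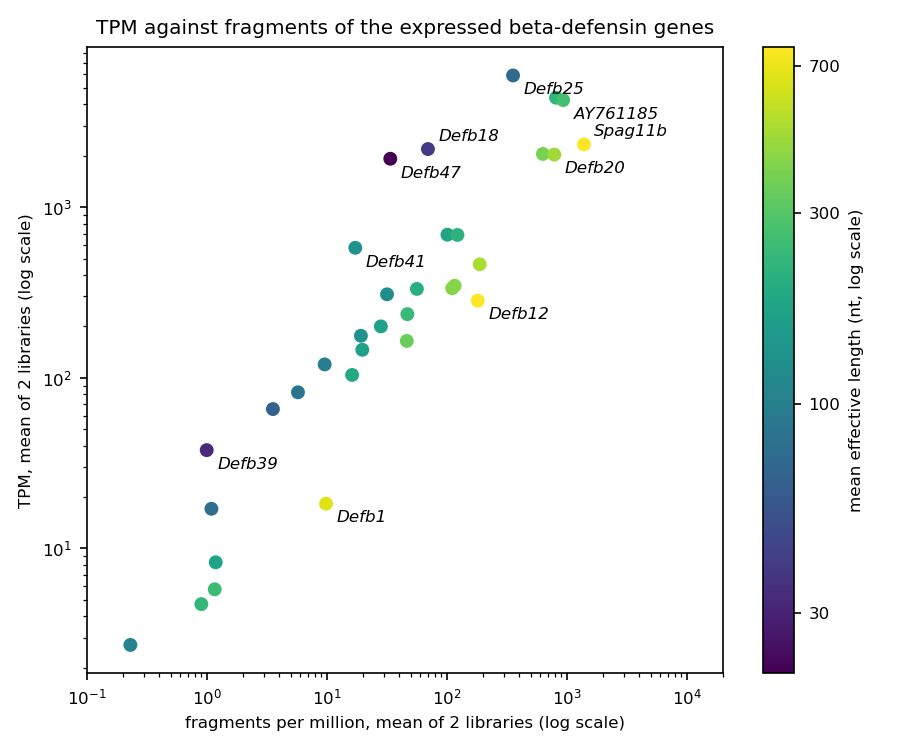
Mean TPM (vertical) against mean fragments scaled to equal library totals (horizontal) for the 33 expressed beta-defensin genes, both axes on log scales, coloured by mean effective length. Genes of short effective length, such as Defb18 and Defb47, lie above genes with as many fragments, and genes of long effective length, such as Defb12 and Defb1, lie below them.

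A middle range of members lay between the leading genes and about 100 TPM. Defb28 had 465.7 and 913.8 TPM from 3136 and 7368 fragments. Spag11a, the neighbour and relative of Spag11b, had 589.2 and 785.3 TPM from 4824 and 7753 fragments. Defb30 had 529.6 and 394.8 TPM from 9600 and 9359 fragments. In this range, higher TPM was found in replicate 2 for some genes and in replicate 1 for others.

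Defb22, whose primate relative DEFB126 is a major glycoprotein of the sperm coat, had 350.7 and 341.6 TPM. Defb15 had 309.2 and 307.6 TPM, the smallest gap of any gene in this range. Defb23 stood at 382.0 and 287.5 TPM, Defb21 at 388.3 and 275.1 TPM, and Defb12 at 340.6 and 225.3 TPM. These last genes were all higher in replicate 1, by less than 2-fold. Defb29 (260.4 and 211.6 TPM) and Defb45 (167.7 and 124.1 TPM) went the same way, while Defb26 (133.3 and 195.5 TPM) and Defb37 (122.2 and 230.3 TPM) were higher in replicate 2.

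Below them, Defb38 had 56.2 and 74.8 TPM from 146 and 218 fragments. Defb19, known in the mouse from the fetal testis, had 7.85 and 8.71 TPM from 52 and 69 fragments. Defb36 had 7.36 and 4.14 TPM from 69 and 47 fragments. These levels were far under those of the leading epididymal members and rested on few fragments.

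Of the beta-defensins best known from other epithelia, Defb1 and Defb2 were expressed, and Defb3, Defb4 and Defb14 were not. Defb1, the constitutive beta-defensin of kidney and airway in the mouse, had 15.6 and 20.9 TPM from 382 and 630 fragments. Defb2 had 32.7 and 131.6 TPM from 108 and 499.4 fragments, and in replicate 2 it was the median member. Defb3 and Defb4, which are induced in mouse epithelia by infection, had 0 fragments in both libraries, where a floor of 3 fragments allows up to 1.37 and 1.25 TPM for Defb3 and up to 0.339 and 0.280 TPM for Defb4. Defb14, the mouse counterpart of human beta-defensin 3, was listed at 11.3 TPM in replicate 1 from 1 fragment, over an effective length of 2.37 nt, and at 0 in replicate 2. Its floor was 33.9 and 56.7 TPM, so that its level was not detectable at this depth and length.

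In all, 12 members were not expressed, and 7 had 0 fragments in both libraries, namely Defb3, Defb4, Defb5, Defb7, Defb8, Defb34 and Defb46. Defb46 had an effective length of 0, so no level can be given for it. For the other 6 the floor allows between 0.339 and 25.5 TPM in replicate 1 and between 0.280 and 41.4 TPM in replicate 2, which for the shortest of them is no close bound. Next to the threshold, Defb6 was just inside at 1.76 and 3.67 TPM from 7 and 17 fragments, and Defb33 just outside at 1.03 and 0.86 TPM from 8 and 8. Defb35 had 2 and 0 fragments, and Defb50 had 0 and 5.

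The members lie in 6 stretches of the genome, counted with gaps under 0.5 Mb and with positions from GENCODE M21 on mm10. On chromosome 2 (chr2:152459055-152623053) all 11 members were expressed, with 25.9% of member fragments in replicate 1 and 27.6% in replicate 2. On chromosome 14 (chr14:62977524-63058149) all 5 were expressed, with 26.0% and 28.8%. On chromosome 1 (chr1:18236473-18265138) Defb18 and Defb41 were expressed, with 1.70% and 1.11%. No member of these stretches fell below the threshold.

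Chromosome 8 held the other 27 members and all 12 that were not expressed. In the stretch between Defb40 and Defb7 (chr8:18974940-19497775), 8 of 16 members were expressed, with 31.2% and 25.3% of member fragments. Along it, 7 of the 8 members from Defb40 to Spag11a were expressed and lay side by side except for Defb34, and all others there were at 0 or at few fragments. A second stretch (chr8:20892669-20944710) held Defb33 and AY761185, with 14.4% and 15.96%. In the third (chr8:21776599-21948850), 6 of 9 members were expressed, with 0.731% and 1.23%. Each of the 6 took a larger share of the fragments of replicate 2, but for Defb15 and Defb13 the difference lay within counting error.

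**Figure D3:**
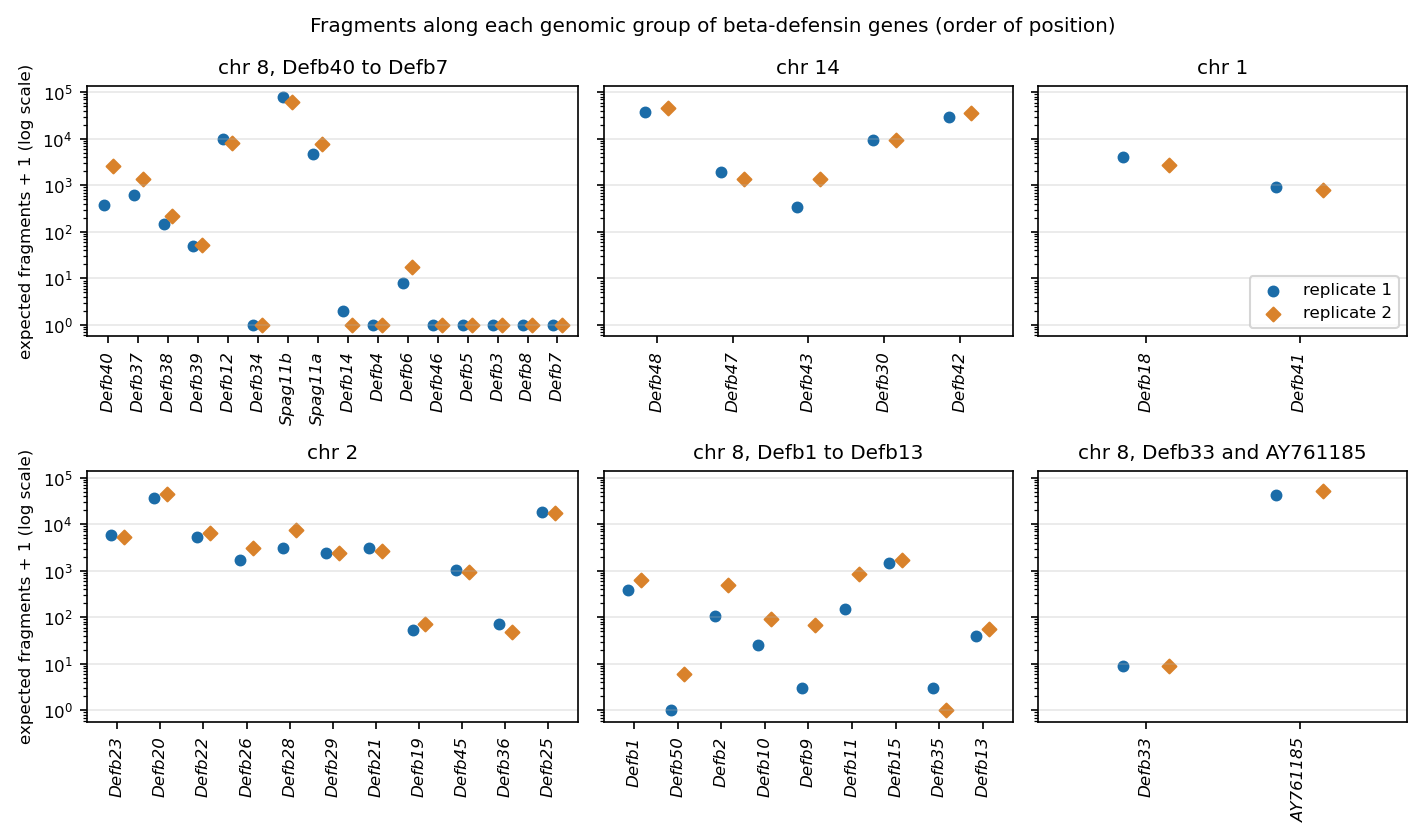
Expected fragments plus 1, on a log scale, for every member in the order of position within its stretch, replicate 1 left of replicate 2. Members at 0 lie on chromosome 8, mostly in the right part of the stretch between Defb40 and Defb7, while all members on chromosomes 1, 2 and 14 have 47 fragments or more.

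The alpha-defensin genes, the relatives made by Paneth cells of the mouse gut, lie in the same region of chromosome 8. All 22 of them lay between the first and last member there, none was expressed, and their fragments summed to 5 in replicate 1 and 2 in replicate 2. Within this region the beta-defensin RNA was therefore not accompanied by alpha-defensin RNA. Of 5 Paneth cell markers 1 was expressed, Lyz1, at 29.3 and 19.3 TPM. Of 7 neutrophil markers 1 was expressed, Ltf, at 8.10 and 35.9 TPM.

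The libraries gave like values for some members and not for others. By fragments scaled with the trimmed mean of M values (TMM), which corrects for depth and composition and leaves length out, 12 of the 33 members with a mean of 20 or more fragments were within 1.25-fold (36.4%), against 58.7% of all genes with as many fragments. Of the 10 highest members by mean TPM, 5 were. Of the 33, 13 were higher in replicate 1 and 20 in replicate 2. The median log2 ratio of replicate 1 over replicate 2 was -0.11 over the members, and near 0 over the same 16920 genes. Its SD was 1.16 over the members and 0.64 over the genes.

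On the TPM scale, with 1 TPM added before the ratio, which understates the differences of low genes, 2 of the 33 members were over 2-fold higher in replicate 1, Defb41 and Spag11b, where 1.54% of all genes tested were. In replicate 2, 6 members were over 2-fold higher, Defb9, Defb40, Defb11, Defb2, Defb43 and Defb10, where 1.15% of all genes were. By TMM-scaled fragments none was over 2-fold higher in replicate 1, beside 3.13% of all genes, and 7 were in replicate 2, beside 3.03%. The seventh was Defb28. These are differences between replicates of 1 group, with no test.

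The members over 2-fold higher in replicate 2 were of low to middle level. Defb40 had 374 fragments in replicate 1 and 2629 in replicate 2 (58.1 and 341.8 TPM), which is 6.31-fold higher in replicate 2 after TMM scaling (counting interval 5.66 to 7.05). Defb11 had 153 and 864.6 fragments (40.8 and 198.7 TPM), 5.08-fold higher in replicate 2 (4.27 to 6.07). Defb2 was 4.15-fold higher in replicate 2 (3.36 to 5.16). In each of these 3 genes the interval lay well clear of 2-fold.

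Defb43 had 347 and 1364 fragments (48.6 and 159.1 TPM), 3.53-fold higher in replicate 2 (3.13 to 3.98). Defb10 had 24 and 91 fragments (7.88 and 26.2 TPM), 3.40-fold higher in replicate 2 (2.15 to 5.58). Defb9 had 2 and 67 fragments (0.57 and 16.6 TPM), a ratio of 30.1 in favour of replicate 2 with a wide interval of 8.01 to 253. The ratio of Defb9 therefore has little precision, although its direction is that of its neighbours. Defb28 was 2.11-fold higher in replicate 2 (2.02 to 2.20) and Defb37 2.00-fold (1.82 to 2.20), close to the limit.

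**Figure D4:**
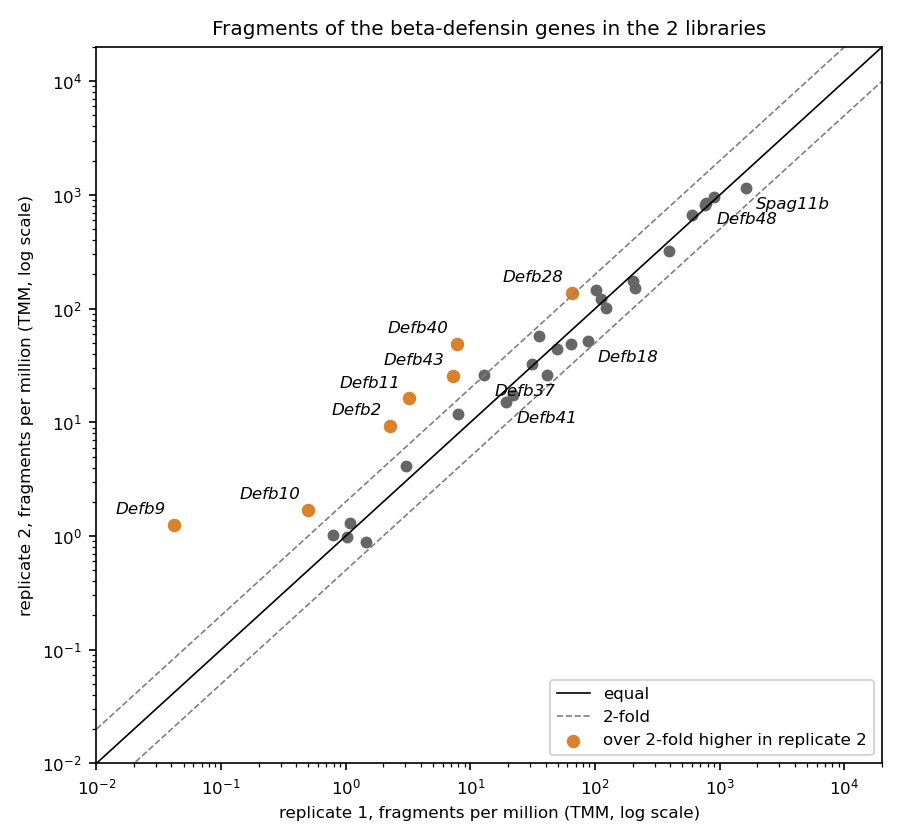
TMM-scaled fragments in replicate 1 (horizontal) and replicate 2 (vertical) for the 33 members with a mean of 20 or more fragments, log scales, with lines of equality and of 2-fold difference. The 7 coloured members lie over 2-fold higher in replicate 2, and no member lies over 2-fold higher in replicate 1.

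Other transcripts also differed between the libraries. Genes of the seminal vesicle, a gland of the male tract, had a sum of 0.82 TPM in replicate 1 and of 50.5 TPM in replicate 2 over 7 markers, none of them expressed. Svs1, Svs2, Svs3a, Svs4, Svs5 and Svs6 had 0 fragments in replicate 1, while in replicate 2 Svs1 had 696 and Svs5 463. Their part in the beta-defensin differences was not tested. Markers of the epididymal epithelium were in most cases higher in replicate 1, for example Lcn8, a lipocalin, with 7811 and 3137 TPM, but Crisp1, a sperm-binding protein, had 1453 and 2545 TPM.

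The TPM difference of Defb41 came with a form of almost no effective length. Defb41 (chr1:18250980-18265138) had 926 fragments in replicate 1 and 809 in replicate 2, yet 1085 and 70.0 TPM. Its form Defb41-202, of 198 nt, was given an effective length of 1.27 nt in replicate 1 and 0 in replicate 2. In replicate 1 it took 991.4 TPM from 47 fragments, and in replicate 2 it was listed at 0 TPM with 17 fragments. Defb41-201, of 467 nt, had 879 and 792 fragments and 94.1 and 70.0 TPM. By TMM-scaled fragments Defb41 was 1.27-fold higher in replicate 1 (1.16 to 1.40).

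Spag11b likewise split between a short and a long form. Spag11b-201, of 342 nt, had 8996 and 3995 fragments, giving 1921 and 725.0 TPM, or 61.4% and 47.1% of the gene's TPM. Spag11b-202, of 1740 nt, had 68593 and 57330 fragments, giving 1208 and 814.0 TPM. The short form thus held most of the TPM in replicate 1 and the long form most of the fragments in both libraries. Over the gene, TMM-scaled fragments were 1.41-fold higher in replicate 1 (1.39 to 1.42), under the 2-fold limit passed on the TPM scale.

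**Figure D5:**
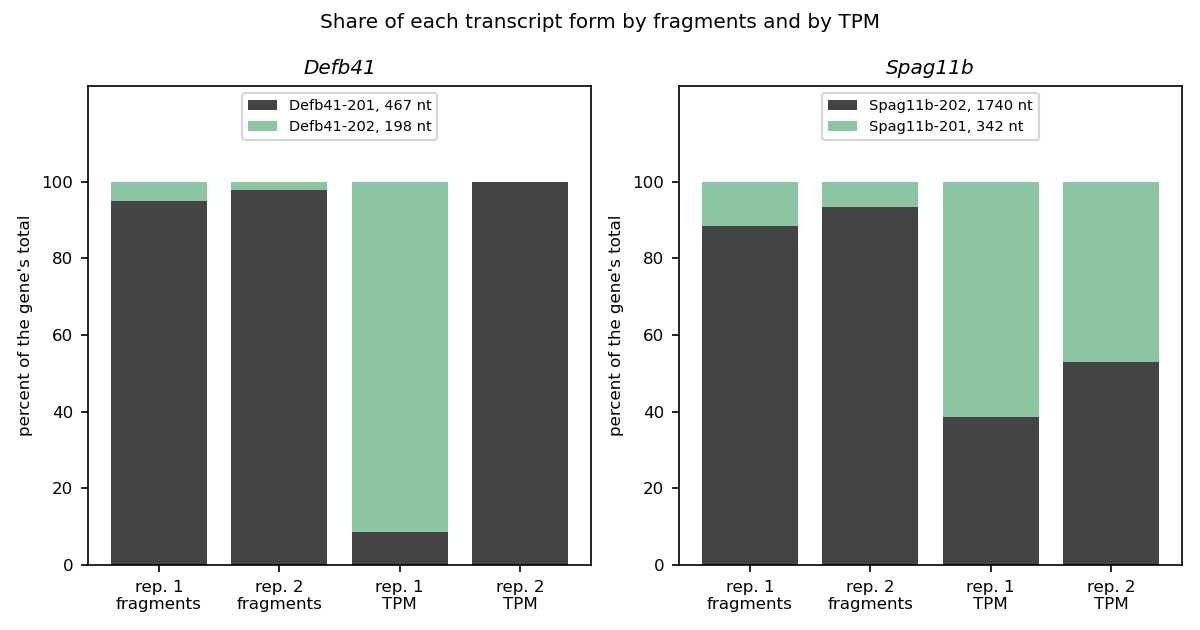
Percent of the gene's fragments and of its TPM carried by each form of Defb41 and Spag11b, replicate 1 left of replicate 2. The short form of each gene is a thin band of the fragments, while by TPM Defb41-202 carries 91.3% in replicate 1 and 0% in replicate 2, and Spag11b-201 carries 61.4% and 47.1%.

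Defb42 and Defb30 also had several forms with fragments. Defb42-201 carried 89.2% of the TPM of Defb42 in replicate 1 and 90.9% in replicate 2. Defb30-202 carried 50.0% and 59.8% of that of Defb30, and Defb30-201, of 307 nt, 36.6% and 35.4%. The spans of Defb30 and Defb42, introns included, overlap by 2970 nt on opposite strands. The overlap of their exons was not measured. Since no source states whether the counting used strand, their counts are uncertain there. The leading form was the same in both libraries for these genes.

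Some members share sequence that a read cannot place. Among 76 nt words of the transcripts, 31.0% of those of Spag11a are also in Gm45826, a gene model not in the deposited tables that overlaps Spag11a and Spag11b. Defb11 and Defb2 share 11.2% and 11.7% of their words with each other or with Defb10, which shares 3.59% of its own. These are shares of single words and do not give the error of a count made from read pairs. The deposited posterior SD of the count in replicate 2 was 0.49 fragments for Defb11 (864.6 fragments) and for Defb2 (499.4 fragments). In replicate 1 it was 0 for both. Of the other members only Spag11b (0.334%) and Defb42 (0.289%) shared any words. Counted over whole gene spans with introns, Defb15 overlaps the antisense model Gm36879 by 2912 nt. Defb41 overlaps the pseudogene Gm17837 (33 and 7 fragments) on its own strand. Words were compared in the sense direction only, and those of Defb15 and Defb41 were shared with no other gene.

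Genes of the machinery that folds and releases secreted peptides were expressed too. All 15 genes of a list of secretory and disulfide processing enzymes were, beside 61.6% of all protein-coding genes. They were led by Pdia3 (613.2 and 364.4 TPM) and P4hb (323.1 and 285.8 TPM), which are protein disulfide isomerases. A link of these genes to the beta-defensins was not tested. Furin, a proprotein convertase, had 70.4 and 53.9 TPM. All 12 genes of a list of regulators known from the initial segment and head of the epididymis were expressed, beside the same 61.6%. Among them Etv5 and Etv4, ETS factors of the initial segment, had 111.2 and 71.0 TPM and 49.1 and 40.0 TPM.

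Of 20 other secreted antimicrobial genes, 13 were expressed, a share near the 61.6% of all protein-coding genes. Lcn2, the siderophore-binding lipocalin, was the highest at 5287 and 2986 TPM, the order of the leading beta-defensins. Lyz2, a lysozyme of macrophages, had 281.8 and 337.4 TPM, and Camp, the cathelicidin of neutrophils, had 0.21 and 0.75 TPM. Of 10 surface receptors written down as candidates for beta-defensins, 7 were expressed, which is also near the 61.6% of protein-coding genes. The highest were Ackr3 at 82.2 and 138.8 TPM, Egfr at 36.7 and 36.7 TPM and Cd93 at 13.9 and 15.4 TPM. Ccr6, a chemokine receptor bound by human beta-defensin 2, had 0.16 and 0.22 TPM, Mc1r, the melanocortin receptor bound by a dog beta-defensin, had 0 fragments in both, and Tlr4, the receptor of lipopolysaccharide, had 2.16 and 2.93 TPM.

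Markers of testis cells were present in part. Of 8 Sertoli cell markers 4 were expressed, which is no more than the 61.6% of all protein-coding genes. Inhbb (28.3 and 20.1 TPM) and Sox9 (25.2 and 10.3 TPM) led them. Fshr had 0 fragments in both libraries, Amh had 0.31 and 0.30 TPM, and Cst9 had 0.06 and 0.19 TPM. Rhox5, at 1.14 and 0.89 TPM, was not expressed either. Of 6 germ cell markers 5 were expressed, with Prm2, a sperm protamine, at 222.7 and 171.8 TPM. The median of these 6 was 78.9 TPM in replicate 1 and 48.9 TPM in replicate 2, against 56.2 and 131.6 TPM for the median beta-defensin gene. The germ cell markers held 0.0175% of gene fragments in replicate 1 and 0.0133% in replicate 2. Their part in the levels of the members was not tested.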

How the data were processed

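Gene and transcript tables of 2 polyA RNA libraries were used. The deposited expected counts (estimated fragments that need not be whole), TPM and FPKM, and in the transcript tables the percent of the gene's TPM per transcript, are the authors' values, named per the file headers. The deposited bounds of the TPM interval and the posterior values were read as a signal that is never negative. The accompanying notes name mm10 and GENCODE M4; which aligner and which quantifier made the values is not stated in the labels or headers. Junction and contig tables on mm9 were not used here.

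Members were found by symbol, after matching Ensembl identifiers for 42462 of 43346 genes. Positions are from GENCODE M21 (mm10), promoters from RefSeq. The threshold for expressed was 1 TPM in each library. Over 2-fold apart meant a ratio of TPM + 1 past 2 at a mean count of 20 or more. Fragments, the expected counts, were also scaled by TMM in edgeR 4.0.16 and by size factors in DESeq2 1.42.0 (R 4.3.3), after rounding, with 0.5 fragments added before the log2 ratio. Floors are 3 fragments, and intervals are exact at 95%. No gene was tested, since 1 group of 2 replicates has no contrast. Only the rule for 2-fold differences was tested on simulated counts, which held counting error and no further spread between libraries.

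The rule for named genes took up to 30 members by mean TPM, Defb1, Defb2, Defb3, Defb4 and Defb14, and up to 4 genes per list. Defb6, Defb13, Defb19, Defb33, Defb35, Defb36, Defb50, the members at 0 and some list genes were named outside it, after their values were seen. The members and lists were chosen with earlier results of these data known. Lists covered adipocyte, epididymal epithelium, epididymal regulators, secretory processing, antimicrobial, receptor, alpha-defensin, neutrophil, Paneth, Sertoli, germ cell and seminal vesicle genes. Alternatives were other thresholds, pseudocounts, count minimums, scalings, full transcript length, posterior means, and each replicate alone.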

Additional observations from a re-analysis of the deposited data

How the results depend on the processing

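The number of expressed members, 33, ranged between 28 (10 TPM) and 35 (0.5 TPM or posterior mean TPM), and between 34 and 36 with either replicate alone. The 2 members over 2-fold higher in replicate 1 became 0 under TMM scaling, 0 under DESeq2 size factors, and 1 without members under 50 nt of effective length, an alternative chosen after seeing the data; the first 2 settings leave length out. The 6 members over 2-fold higher in replicate 2 became 7 under TMM and DESeq2 and 4 at a count minimum of 100. The median log2 ratio of members on the TPM scale, 0.01, was -0.11 under TMM, -0.11 under DESeq2 and -0.12 with FPKM. The cause of the last was not tested. The baseline of all genes differed by scale as well. On the TPM scale the median was 0.12 over the 14875 genes averaging at least 1 TPM. Under TMM it was -0.002 over the 16920 genes tested. The member median thus lay below that of the genes on both scales. Without Spag11b, the member with the most fragments, the share of fragments was 0.472% in replicate 1 and 0.482% in replicate 2, so the order of the libraries turned. Of the 10 highest members by TPM, 9 to 10 were the same with either replicate alone, 9 with full transcript length and 7 by fragments alone. No paired analysis was possible because there is only 1 group. Depth limits members at 0 with short effective lengths.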
